A study of Mus musculus with 12 samples.

Results

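The potassium channel genes of the mouse left ventricle were taken as the genes of the count table whose symbol begins with Kcn and that had 10 or more counts in at least 3 of 12 libraries, which gave 44 of 99 Kcn rows among 49492 rows in all. The 44 genes were made up of 17 pore-forming subunits of voltage-gated channels, 9 inward rectifiers, 4 two-pore channels, 5 calcium- or sodium-activated channels, 7 auxiliary subunits and 2 transcripts antisense to a channel gene. Of the 44 genes, 34 had 10 or more counts in all 12 libraries. At the threshold, Kcnj4 and Kcnt1 were included with 10 or more counts in 3 libraries each, and Kcnk4 was left out with 2 such libraries, counts of 11 and 10. Of the 55 rows left out, 11 had no count in any library and no count among them exceeded 12.

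RNA was sequenced from left ventricle in 4 groups of 3 libraries. Alox5ko_TAC was the Alox5 knockout after TAC, Alox5ko_NS the knockout with the treatment label NS, WT_TAC the wild type after TAC and WT_NS the wild type labelled NS. TAC stands for transverse aortic constriction, in which a band around the aorta makes the left ventricle pump against a higher pressure, and Alox5 codes for arachidonate 5-lipoxygenase. NS is not spelled out, the age of the mice is not given in the sources used here, and the series' title names the transcription factor Runx2. The design text speaks of a cardiac deficiency of Alox5, while the labels give the genotype alone, with no promoter or cell type in which the gene was removed. Nothing says whether each library came from a separate mouse, so p-values measure the spread between these libraries, which may be technical.

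Potassium channels let potassium leave the cardiac muscle cell and so end the action potential and hold the resting potential. In the mouse ventricle, repolarisation is fast and is carried largely by the transient outward current and by slower voltage-gated currents. Inward rectifiers set the resting potential or respond to acetylcholine through G proteins or to ATP, two-pore channels carry a leak current, and auxiliary subunits change the gating or the surface level of the pores. Lower transcripts of transient outward and inward rectifier channels are a textbook feature of the overloaded heart.

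What the pore-forming subunits share is the selectivity filter, a short loop in which carbonyl oxygens hold potassium ions in single file. Its codons are shown here for 4 genes whose levels turn out to differ with TAC and for Kcnk3, the most abundant. The capitals mark the 15 bases that match the pattern ACNNTNGGNTNNGGN, read in frame on the coding strand of the longest coding transcript in GENCODE release M21, with 6 bases before and 9 after.
Kcnc1: atgacgACACTGGGCTATGGAgacatgtat
Kcnd2: atgacaACACTGGGGTATGGCgacatggta
Kcna1: atgaccACTGTGGGATACGGTgacatgtac
Kcnj3: gaggccACCATCGGCTATGGCtaccgctac
Kcnk3, first pore: atcaccACCATCGGCTATGGTcatgcggcg
Kcnk3, second pore: ctcaccACCATCGGCTTCGGCgactatgtg
The pattern was found in 30 of 42 members with a coding transcript (71.4%), against 187 of 21466 coding genes (0.871%). It was present in 16 of 17 voltage-gated subunits, in 8 of 9 inward rectifiers and in 4 of 4 two-pore channels, of which 3 held it at 2 places. It was found in 2 of 5 calcium- or sodium-activated channels and in 0 of 7 auxiliary subunits, which form no pore. Kcnh2, Kcnj14 and the small-conductance channels Kcnn1, Kcnn2 and Kcnn3 had no match. The second codon of the pattern began with C in 5 genes that include Kcnc1, Kcnd1, Kcnd2 and Kcnd3, with G in 11 genes that include all 6 Kcna members, and with A in 13 genes that include all matching inward rectifiers.

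The 12 libraries held 20889431 to 27311196 counts. The targeted gene was low in the libraries labelled knockout: Alox5 had 1.36, 1.14 and 1.10 CPM (counts relative to the library total, scaled by TMM factors) in Alox5ko_TAC and 1.46, 1.12 and 0.934 CPM in Alox5ko_NS, against 13.4, 9.56 and 12.2 CPM in WT_TAC and 13.04, 10.5 and 13.9 CPM in WT_NS. Marker sums are in CPM without TMM factors. The sum of 8 cardiomyocyte markers was 172300 to 182500 CPM in Alox5ko_TAC and 172100 to 177000 CPM in WT_TAC, against 146400 to 174200 CPM in Alox5ko_NS and 167800 to 180000 CPM in WT_NS. The sum of 5 atrial markers was 284 to 1314 CPM in Alox5ko_TAC and 637 to 1328 CPM in WT_TAC, against 170 to 289 CPM in Alox5ko_NS and 180 to 357 CPM in WT_NS. Of the 4 that could be tested, Nppa, which is also known as a gene of the loaded ventricle, rose with TAC over both genotypes by 1.94 (log2, SE 0.38, adjusted p = 0.0253) and the others did not pass. The atrial light chain gene Myl4 ranged over 1.65 to 77.9 CPM in Alox5ko_TAC and 6.05 to 50.8 CPM in WT_TAC, against 1.35 to 29.1 CPM in Alox5ko_NS and 14.3 to 60.2 CPM in WT_NS. Bmp10 was at 0 in 11 of 12 libraries. Myl4 thus varied widely between libraries of one group, the groups overlapped, and its part in the results on Kcnj3, Kcnj5, Kcna5 and Kcne1 was not tested. The sum of 6 fibroblast markers was 260 to 310 CPM in Alox5ko_TAC and 279 to 494 CPM in WT_TAC, against 192 to 223 CPM in Alox5ko_NS and 252 to 301 CPM in WT_NS, and 1 of the 6, Lum, rose with TAC. The sum of 7 Schwann cell and neuron markers was 1.72 to 3.58 CPM with TAC, against 2.19 to 4.27 CPM with NS, with Th at 0 in every library. The part of these markers in the results on TAC was not tested. In bulk ventricle, fewer cells of a type and less RNA per cell cannot be told apart.

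Levels between genes are given as the deposited RPKM, which are per length. Kcnk3, a two-pore channel that carries an acid-sensitive leak current, was the most abundant with 21.7 ± 1.54 RPKM (SD, n = 12) and a range of 19.1 to 23.8 RPKM. The next were 3 inward rectifiers. Kcnj11, the pore of the cardiac ATP-sensitive channel, had a mean of 16.7 RPKM (13.1 to 19.3), and Kcnj3 and Kcnj5, which together form the acetylcholine-activated channel, had 15.8 RPKM (10.9 to 22.0) and 12.4 RPKM (8.57 to 15.5). Kcng2, a subunit that is silent on its own and modifies other voltage-gated pores, had 11.99 RPKM (10.3 to 13.1). The ranges of Kcnj11, Kcnj3, Kcnj5 and Kcng2 overlapped with those of their neighbours in this order.

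Below these 5 genes stood Kcna5, a pore of a rapidly activating and slowly inactivating current, with 9.98 RPKM (3.36 to 13.2), Kcnip2, the auxiliary subunit of the transient outward channel, with 9.40 RPKM, and Kcnj8, the ATP-sensitive pore of vascular muscle and pericytes, with 9.06 RPKM. Kcnh2, the pore of the rapid delayed rectifier, followed with 5.68 RPKM and Kcnq1, the pore of the slow delayed rectifier, with 5.17 RPKM. In all, 5 members had a mean over 10 RPKM, 17 had one over 1 RPKM and 27 lay under 1 RPKM, down to 0.0344 RPKM for the sodium-activated channel Kcnt1. The pores best known for the mouse transient outward current were of modest level, with 1.91 RPKM for Kcnd2 and 0.706 RPKM for Kcnd3. Kcnc1 and Kcna1, described next, lay near the low end with 0.0786 and 0.143 RPKM.

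**Figure D1:**
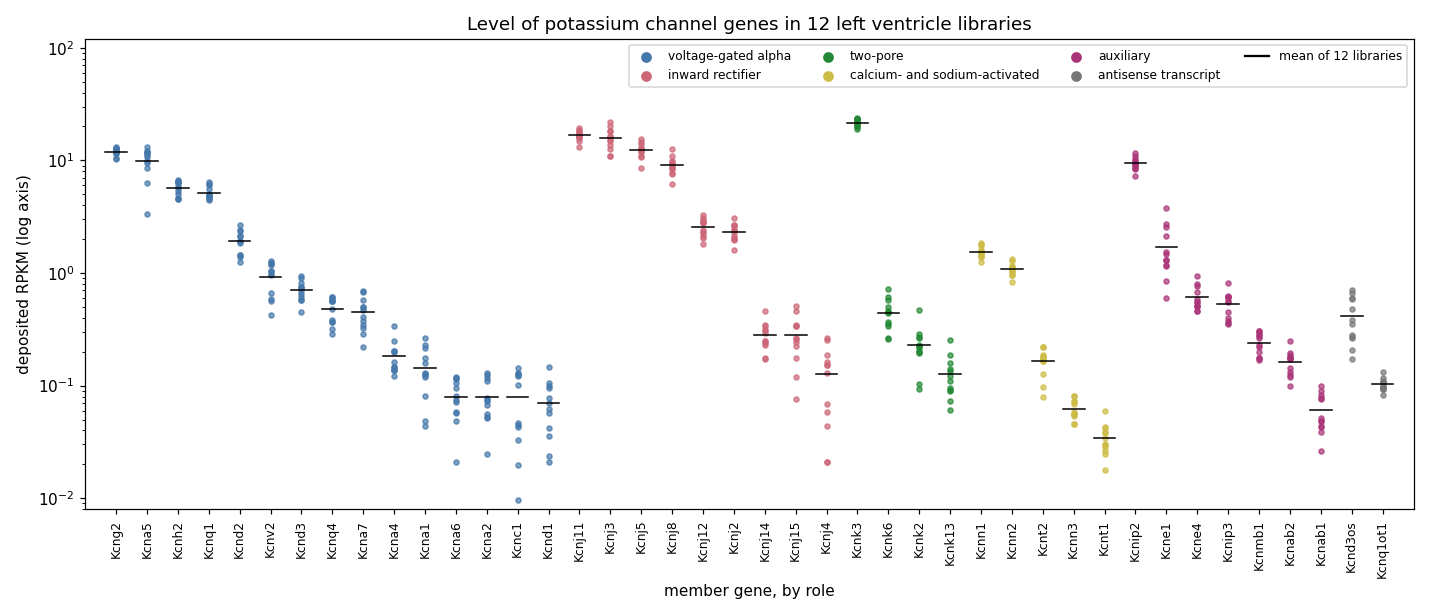
Deposited RPKM (log axis) of the potassium channel genes reported here, grouped by role and sorted by mean within a role. Each point is 1 of 12 libraries and each bar is the mean of the 12. Kcnk3 stands highest at 21.7 RPKM, and the spread within most abundant genes is small next to the range between genes.

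Across both genotypes, 5 of the 42 members that could be tested differed between TAC and NS. As NS is not spelled out, the difference cannot be credited to pressure overload alone. Kcnc1 rose, and Kcnd2, Kcnj12, Kcnj3 and Kcna1 fell. The test averaged the TAC difference of the knockout and of the wild type, with a call at an adjusted p under 0.05 (edgeR's quasi-likelihood F test, Benjamini-Hochberg over 15542 genes). The 5 calls are 11.9% of the members tested, and 5.1% of all genes tested were called in the same comparison (2.9% higher, 2.19% lower). At an unadjusted p under 0.05 there were 13 members, 3 higher and 10 lower, or 31.0% of the members against 19.3% of all genes. The 3 higher include Kcnc1 and Kcnd1, which had enough counts to be tested through their TAC libraries, where they were high. The median log2 difference was -0.06 over the members and 0.00 over all genes. Kcnj4 and Kcnt1 were too low to be tested in this main fit.

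Kcnc1 codes for a fast delayed rectifier pore best known from fast-spiking neurons, and lies at chr7:46396497-46438704 on the plus strand (GRCm38, ENSMUSG00000058975.7). It had 1.36, 1.14 and 1.20 CPM in Alox5ko_TAC, against 0.411, 0.448 and 0.445 CPM in Alox5ko_NS. In wild type it had 0.939, 1.20 and 1.22 CPM in WT_TAC, against 0.182, 0.302 and 0.0898 CPM in WT_NS. All 6 TAC libraries lay above all 6 NS libraries, with means of 1.18 ± 0.137 CPM with TAC and 0.313 ± 0.150 CPM with NS (SD, n = 6 each). The log2 difference was 2.002 (SE 0.25, adjusted p = 0.000338), a 4.01-fold higher level. The counts behind these values were small, at 20 to 32 per library with TAC, against 2 to 12 per library with NS. At these counts Kcnc1 passed the filter on low counts through its TAC libraries, where it was high. It was also called without that filter, in a fit that called 1331 of all genes over both genotypes, against 792 with the filter. The selection thus remains a limit of the call.

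Kcnd2 codes for a pore of the fast transient outward current, which shapes the early repolarisation of mouse ventricular cells. It lies at chr6:21215503-21729805 on the plus strand (GRCm38, ENSMUSG00000060882.5), 94.7 Mb from Alox5 on the same chromosome. It had 6.49, 7.08 and 7.51 CPM in Alox5ko_TAC, against 11.1, 12.4 and 10.5 CPM in Alox5ko_NS. Its wild-type levels were 7.37, 10.9 and 9.87 CPM in WT_TAC, against 9.22, 12.01 and 13.7 CPM in WT_NS. The knockout groups did not overlap, and in wild type 2 of 3 TAC libraries lay within the range of the NS libraries. Over both genotypes Kcnd2 was 29.3% lower with TAC (log2 -0.50, SE 0.11, adjusted p = 0.0098). Kcnc1 and Kcnd2 kept their calls in this comparison without each of the 12 libraries in turn.

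Kcnj12 codes for a pore of the inward rectifier current that holds the resting potential, and lies at chr11:61022564-61071131 on the plus strand (GRCm38, ENSMUSG00000042529.14). It had 5.69, 7.54 and 6.51 CPM in Alox5ko_TAC, against 8.56, 8.28 and 8.27 CPM in Alox5ko_NS. In wild type Kcnj12 had 4.88, 5.79 and 6.20 CPM in WT_TAC, against 8.68, 6.40 and 7.67 CPM in WT_NS. Within each genotype all TAC libraries lay below all NS libraries. The level was 23.6% lower with TAC (log2 -0.39, SE 0.10, adjusted p = 0.0285).

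Kcnj3 lies at chr2:55435970-55598145 on the plus strand (GRCm38, ENSMUSG00000026824.11). It had 57.6, 76.9 and 72.8 CPM in Alox5ko_TAC, against 96.2, 96.0 and 90.2 CPM in Alox5ko_NS. In wild type Kcnj3 had 55.6, 65.4 and 84.1 CPM in WT_TAC, against 111, 76.8 and 104 CPM in WT_NS. The knockout groups did not overlap, whereas WT_TAC 3 lay above WT_NS 2. Kcnj3 was 28.2% lower with TAC (log2 -0.48, SE 0.12, adjusted p = 0.0383). Of its 5215 exonic bases, 1621 (31.1%) are overlapped by the opposite-strand transcript Gm26794, whose mean count was 155 against 1898 for Kcnj3 and which itself fell with TAC by 0.84 (log2, SE 0.12, adjusted p = 0.000833). Since no source used here says whether counting used strand, reads of the 2 transcripts in the overlap cannot be told apart.

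Kcna1 codes for a low-threshold delayed rectifier pore first known from neurons, and lies at chr6:126640397-126646384 on the minus strand (GRCm38, ENSMUSG00000047976.4), 10.2 Mb from Alox5. It had 0.212, 0.594 and 0.622 CPM in Alox5ko_TAC, against 0.598, 1.12 and 0.801 CPM in Alox5ko_NS. Its wild-type levels were 0.564, 0.386 and 0.235 CPM in WT_TAC, against 0.818, 0.994 and 1.26 CPM in WT_NS. The wild-type groups did not overlap, and the knockout groups met at about 0.6 CPM. The level was 53.3% lower with TAC (log2 -1.10, SE 0.29, adjusted p = 0.0339), on counts of 5 to 30 per library. Without 1 library in turn the call on Kcnj3 was lost in 9 of 12 cases, that on Kcna1 in 7 and that on Kcnj12 in 6, with adjusted p of at most 0.0983, and the fold changes kept their direction. Kcnj3 kept its call without Alox5ko_TAC 2, WT_TAC 3 or WT_NS 2, and lost it without any other library. Kcna1 kept its call without Alox5ko_TAC 2, Alox5ko_TAC 3, Alox5ko_NS 1, WT_TAC 1 or WT_NS 1, and Kcnj12 without Alox5ko_TAC 2, Alox5ko_NS 2, Alox5ko_NS 3, WT_TAC 2, WT_TAC 3 or WT_NS 2. The members called numbered 2 without Alox5ko_TAC 1 or WT_NS 3, 3 without Alox5ko_NS 1 and 9 without Alox5ko_TAC 2. Over all genes, 792 were called in the main fit and 407 to 990 without 1 library in turn. The 9 members include Kcnj4, which the main fit did not test.

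**Figure D2:**
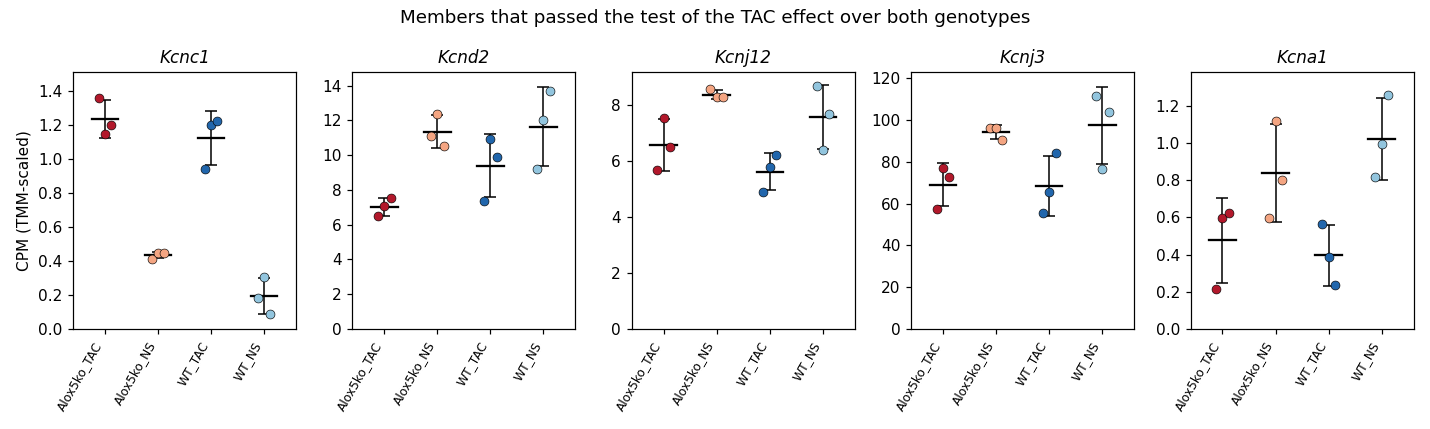
Level of the 5 members that passed the test of the TAC effect over both genotypes, in CPM with TMM scaling on axes that start at 0. Points are libraries, horizontal bars group means and vertical bars 1 SD (n = 3). Kcnc1 is higher in all 6 TAC libraries, and the other 4 genes have lower TAC means in both genotypes.

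The promoter windows of RefSeq (GRCm38.p6, 250 bases before to 50 after a start) were searched for the RUNX letters TGTGGT and for the GC box GGGCGG on both strands, since the series is about Runx2 and the GC box is a common promoter element. Kcnc1, the member that rose, is shown first, followed by Kcnd2 and by Kcnj3, which holds the RUNX letters. The capitals mark the GC box (also as CCGCCC on the other strand) and, in Kcnj3, TGTGGT.
Kcnc1, chr7:46396218-46396517, plus strand: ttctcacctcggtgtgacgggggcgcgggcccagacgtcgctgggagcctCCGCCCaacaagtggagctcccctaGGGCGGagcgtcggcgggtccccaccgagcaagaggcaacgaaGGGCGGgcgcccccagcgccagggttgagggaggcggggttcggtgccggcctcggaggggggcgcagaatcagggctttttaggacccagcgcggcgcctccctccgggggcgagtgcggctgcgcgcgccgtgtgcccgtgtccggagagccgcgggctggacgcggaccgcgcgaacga
Kcnd2, chr6:21215096-21215395, plus strand: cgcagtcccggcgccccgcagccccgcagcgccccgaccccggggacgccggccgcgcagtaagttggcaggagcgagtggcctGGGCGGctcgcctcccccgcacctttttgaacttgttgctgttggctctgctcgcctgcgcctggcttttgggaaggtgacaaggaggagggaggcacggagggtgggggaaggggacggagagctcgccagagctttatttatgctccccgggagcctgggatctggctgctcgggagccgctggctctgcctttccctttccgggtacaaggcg
Kcnj3, chr2:55435720-55436019, plus strand: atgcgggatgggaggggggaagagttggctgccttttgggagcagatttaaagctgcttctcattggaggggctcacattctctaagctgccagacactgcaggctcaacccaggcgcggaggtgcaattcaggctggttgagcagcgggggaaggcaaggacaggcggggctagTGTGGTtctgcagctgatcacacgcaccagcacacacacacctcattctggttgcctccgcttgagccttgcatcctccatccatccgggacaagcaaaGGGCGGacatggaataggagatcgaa
The window of Kcnc1 held the GC box 3 times and was 74.7% G or C, that of Kcnd2 held it 1 time and that of Kcnj3 held each motif 1 time. The window of Kcnj12 (chr11:61065554-61065853) held neither set of letters. For 29 member genes, 39 windows were matched, since some genes have several starts. Of the 39 windows, 5 (12.8%) held TGTGGT or its complement, 1 each of Kcna4, Kcna7, Kcnj3, Kcnj5 and Kcnt2, against 16.8% of all 32851 windows. The GC box was in 16 of the 39 windows (41.0%), against 35.7% of all windows. These matches describe letters and not binding.

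Of 4 genes of the transient outward current, 1 was called over both genotypes, Kcnd2 described above, against 5.1% of all genes tested. The median log2 difference of the 4 was -0.29. Kcnd3, the second pore of the fast component, had 4.37, 5.80 and 5.64 CPM in Alox5ko_TAC, against 7.29, 9.14 and 6.67 CPM in Alox5ko_NS. In wild type Kcnd3 had 5.40, 7.20 and 7.14 CPM in WT_TAC, against 6.45, 7.56 and 8.62 CPM in WT_NS. Its log2 difference over both genotypes was -0.37 (SE 0.11, adjusted p = 0.0641), and the ranges with TAC and with NS overlapped. Without Alox5ko_NS 3 the effect on Kcnd3 passed, at -0.42 with an adjusted p of 0.0470. Kcnip2, the subunit that brings these pores to the membrane, had a log2 difference of -0.21 (SE 0.07, adjusted p = 0.110), with means of 29.2 CPM in Alox5ko_TAC against 33.6 CPM in Alox5ko_NS, and 31.4 CPM in WT_TAC against 36.5 CPM in WT_NS. Kcna4, the pore of the slow component, pointed the other way with 0.36 (SE 0.25, adjusted p = 0.473).

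Of 4 genes of the slow and steady-state currents, 0 were called over both genotypes by edgeR and 0 by DESeq2. By edgeR 5.1% of all genes tested were called. Of the 4, 0 had an unadjusted p under 0.05, against 19.3% of all genes tested. All 4 differences were negative, with a median of -0.19. Kcna5, which lies 10.1 Mb from Alox5 on chromosome 6, had 33.4, 32.8 and 24.6 CPM in Alox5ko_TAC. In Alox5ko_NS it had 30.9, 27.8 and 30.2 CPM. In wild type Kcna5 had 33.9, 9.56 and 18.2 CPM in WT_TAC, against 32.6, 30.9 and 37.5 CPM in WT_NS. WT_TAC 2 and WT_TAC 3 thus lay below every other library, and WT_TAC 1 lay among the NS libraries. The log2 difference in wild type was -0.71 (SE 0.37, adjusted p = 0.513) and that in the knockout 0.03 (SE 0.36), and the difference between them did not pass (0.75, SE 0.52, adjusted p = 0.998). Without WT_TAC 1 the TAC effect on Kcna5 over both genotypes passed, at -0.62 with an adjusted p of 0.0493, and so did the effect in wild type alone. The delayed rectifier pores Kcna2 and Kcna7, both under 2 CPM on average, had -0.15 (SE 0.29) and -0.23 (SE 0.25).

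Of the delayed rectifier genes, 0 of 3 tested members were called over both genotypes by edgeR and 0 by DESeq2. By edgeR 5.1% of all genes tested were called, and 19.3% had an unadjusted p under 0.05. Of the 3 members, 1 had an unadjusted p under 0.05. This was Kcne1, the small partner of Kcnq1, with 8.28, 2.65 and 5.02 CPM in Alox5ko_TAC, against 3.78, 1.94 and 4.98 CPM in Alox5ko_NS. In wild type Kcne1 had 11.8, 6.82 and 8.83 CPM in WT_TAC, against 4.04, 3.63 and 4.13 CPM in WT_NS. The wild-type groups did not overlap and the knockout groups did. The log2 difference over both genotypes was 0.91 (SE 0.30, adjusted p = 0.127), and without Alox5ko_TAC 2 it passed at 1.07 (adjusted p = 0.0267). Alox5ko_TAC 2 also had the lowest Nppa of the TAC libraries, at 278 CPM against 623 to 1244 CPM in the other 5, and the part of this in the result was not tested. Kcnq1 and Kcnh2 had log2 differences of 0.08 (SE 0.08) and -0.13 (SE 0.08). Kcne2 was not a member, with 1 count over all libraries.

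Among inward rectifiers, 2 of 8 tested members were called lower over both genotypes, Kcnj12 and Kcnj3 described above, and none was called higher. Of all genes tested, 2.19% were called lower and 2.9% higher. Kcnj15, not called in the main fit, was called without Alox5ko_TAC 2. Kcnj2, the main pore of the resting current beside Kcnj12, had 11.4 ± 3.03 CPM in Alox5ko_TAC against 12.6 ± 1.24 CPM in Alox5ko_NS, and 14.0 ± 3.04 CPM in WT_TAC against 12.6 ± 1.15 CPM in WT_NS (SD, n = 3 each). Its log2 difference was 0.00 (SE 0.13), with a sign that varied between settings. Kcnj5, the partner of Kcnj3, had a log2 difference of -0.19 (SE 0.08, adjusted p = 0.178). The ATP-sensitive pores Kcnj11 and Kcnj8 had differences of 0.02 (SE 0.08) and -0.15 (SE 0.09), and Kcnj14, a weak member of the resting current list, had 0.12 (SE 0.26). Kcnj4, too low to be tested in the main fit, had counts of 13, 6 and 7 in Alox5ko_TAC against 4, 11 and 3 in Alox5ko_NS, and 12, 8 and 7 in WT_TAC against 2, 1 and 1 in WT_NS. Without the filter on low counts Kcnj4 was called for TAC in wild type and over both genotypes. It was also called over both genotypes without Alox5ko_TAC 2, Alox5ko_TAC 3, Alox5ko_NS 2, WT_TAC 2, WT_TAC 3 or WT_NS 1. With 1 library left out, the filter asked for fewer libraries, and Kcnj4 passed it through Alox5ko_TAC 1 and WT_TAC 1. Both are TAC libraries where Kcnj4 was high, so these calls are given as a description.

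Of the 4 two-pore channels and 4 tested calcium- or sodium-activated channels, 0 passed over both genotypes by edgeR and 0 by DESeq2. By edgeR 5.1% of all genes tested passed. An unadjusted p under 0.05 was found for 1 of each kind, against 19.3% of all genes tested. Kcnk3, with the smallest SE of the tested members here, had a log2 difference of -0.13 (SE 0.06, adjusted p = 0.217). Kcnn2, a calcium-activated channel of small conductance known from atrial and pacemaker cells, had -0.27 (SE 0.09, adjusted p = 0.0879), with 6.94 CPM in Alox5ko_TAC against 8.71 CPM in Alox5ko_NS and 7.48 CPM in WT_TAC against 8.62 CPM in WT_NS. Kcnk2 and Kcnk6, 2 other leak channels, had 0.34 (SE 0.26) and -0.17 (SE 0.22). Kcnn1, Kcnn3 and Kcnmb1, the last an auxiliary subunit of smooth muscle, had 0.06 (SE 0.10), -0.02 (SE 0.24) and -0.05 (SE 0.20). Outside these lists, Kcnd1, a weakly expressed relative of Kcnd2, had a difference of 1.11 (SE 0.36, adjusted p = 0.0857) on a mean of 0.367 CPM. Its 4 libraries with 10 or more counts were all TAC libraries, so that the rule for members itself favoured a higher TAC level, and the value is given as a description. Kcnv2, a silent modifier of other voltage-gated pores, had -0.62 (SE 0.21, adjusted p = 0.124). It was called by DESeq2 (adjusted p = 0.0262) and without the filter on low counts (adjusted p = 6.9e-05). The fit without the filter also gave -0.62, with a smaller SE of 0.12. That fit called 1331 of all genes, against 792 with the filter. In Kcnv2 the library Alox5ko_TAC 2 had 6.12 CPM, against 2.21 and 3.01 CPM in the other Alox5ko_TAC libraries and 5.37 to 6.58 CPM in Alox5ko_NS. Without Alox5ko_TAC 2 the effect on Kcnv2 passed, at -0.88 with an adjusted p of 0.00103.

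Within single genotypes fewer members passed. In the knockout 2 of 42 did (4.76%), against 1.34% of all genes tested. They were Kcnc1, higher by 1.50 (log2, SE 0.32, adjusted p = 0.0281), a 2.82-fold difference, and Kcnd2, 38.1% lower (log2 -0.69, SE 0.15, adjusted p = 0.0286). Each of these 2 calls was lost without Alox5ko_TAC 1, Alox5ko_TAC 3 or any 1 of the 3 Alox5ko_NS libraries, with adjusted p up to 0.116 for Kcnc1 and 0.126 for Kcnd2. In this comparison DESeq2 called Kcnd2 and gave Kcnc1 no adjusted p. At an unadjusted p under 0.05 there were 13 members in the knockout, of which 11 were lower, or 31.0% of the members against 14.5% of all genes. They included Kcnj5 (-0.38, SE 0.11, adjusted p = 0.0996, and 0.0495 by DESeq2), Kcnd3 (-0.55, SE 0.16, adjusted p = 0.103) and Kcnk3 (-0.24, SE 0.08, adjusted p = 0.140). Also among the 13 were Kcnc1, Kcnd1, Kcnd3os and Kcnk13, on small counts. Each met the rule for members or the filter on low counts mainly through groups where it was high. Kcnk13 (-1.27, SE 0.43, adjusted p = 0.162) had 10 or more counts in 4 libraries, all labelled NS. The share of 31.0% is thus given as a description.

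In wild type 1 of 42 members passed (2.38%), against 0.766% of all genes tested. Kcnc1 was higher by 2.51 (log2, SE 0.39, adjusted p = 0.0061), a 5.69-fold difference, and the call held without each library in turn. At an unadjusted p under 0.05 there were 9 members, 5 higher and 4 lower, or 21.4% of the members against 11.9% of all genes. The higher ones include Kcnc1 and Kcnd3os, which met the filter or the rule for members mainly through libraries where they were high. The lower ones were Kcna1 (-1.36, SE 0.42), Kcnj12 (-0.43, SE 0.14), Kcnj3 (-0.51, SE 0.17) and Kcnip2 (-0.22, SE 0.10), and Kcnd2 stood at -0.31 (SE 0.15, adjusted p = 0.431). The 2 genotypes' responses were not shown to differ: the test of the difference called 0 of 42 members and 0% of all genes tested, with 3 members at an unadjusted p under 0.05 (7.14%, near the 5.38% of all genes) and 0 members called by DESeq2. For Kcnd2 the knockout response minus the wild-type response was -0.38 (SE 0.21, adjusted p = 0.950), and for Kcnc1 it was -1.01 (SE 0.52, adjusted p = 0.925).

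**Figure D3:**
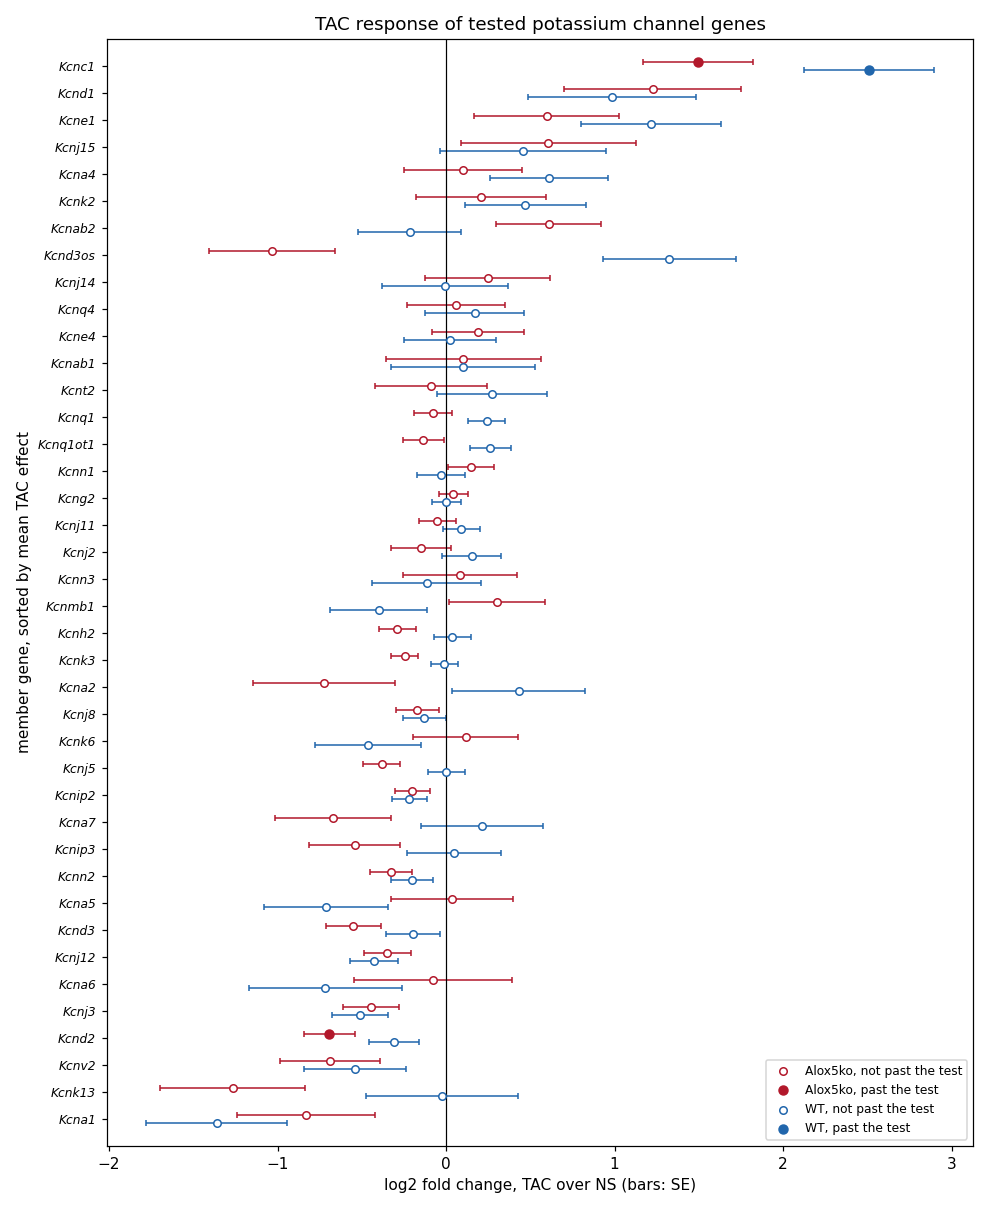
Log2 fold change of TAC over NS for the tested members reported here in Alox5ko (upper symbol of each pair) and in WT (lower symbol), with bars of 1 SE, sorted by the mean TAC effect. Filled symbols passed the test within a genotype: Kcnc1 in both, at 1.50 and 2.51, and Kcnd2 in Alox5ko at -0.69.

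Between genotypes no member passed in the main fit, in a comparison of the libraries labelled knockout with those labelled wild type. Under TAC, 0 of 42 members were called by edgeR and 0 by DESeq2, against 0.109% of all genes. At an unadjusted p under 0.05 there were 8 members, all lower in Alox5ko_TAC (19.0%, against 8.49% of all genes). The 8 include Kcnd3os, which met the rule for members mainly through Alox5ko_NS and WT_TAC. Of the 42 members 29 had a negative difference, and 48.5% of all genes tested had a positive one. Negative too were 7 of 7 smooth muscle and pericyte and 6 of 6 fibroblast markers, while 6 of 6 macrophage markers were positive. Their part was not tested. Kcnj5, a pore of the acetylcholine-activated channel, had 40.6, 49.2 and 52.0 CPM in Alox5ko_TAC, against 54.4, 59.4 and 73.0 CPM in WT_TAC. Kcnh2 had 22.2, 23.9 and 22.2 CPM in Alox5ko_TAC, against 28.4, 31.0 and 30.7 CPM in WT_TAC. Neither pair of groups overlapped, and the log2 differences were -0.40 for both genes (SE 0.11, adjusted p = 0.276). Kcnq1 had 19.5, 19.8 and 18.5 CPM in Alox5ko_TAC, against 24.2, 22.7 and 26.3 CPM in WT_TAC, a log2 difference of -0.34 (SE 0.11, adjusted p = 0.349). Kcnq1ot1, the imprinted antisense RNA of the Kcnq1 locus, had a difference of -0.38 (SE 0.12, adjusted p = 0.336), and 121 bases of the 2 transcripts overlap on opposite strands. Kcna2, a delayed rectifier pore, had -0.99 (SE 0.42, adjusted p = 0.522).

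Without TAC, 0 of 42 members were called by edgeR and 0 by DESeq2, against 0.0386% of all genes, with 3 members at an unadjusted p under 0.05. That is 7.14% of the members, near the 6.36% of all genes. These were Kcnd3os, Kcnc1 and Kcnj8. Kcnd3os met the rule for members mainly through Alox5ko_NS and WT_TAC, where it was high. Kcnc1 had 0.411, 0.448 and 0.445 CPM in Alox5ko_NS, against 0.182, 0.302 and 0.0898 CPM in WT_NS, a difference of 1.15 (log2, SE 0.44, adjusted p = 0.686) on counts of 10 to 12 in Alox5ko_NS against 2 to 7 in WT_NS.

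Averaged over both treatments, 0 of 42 members differed with genotype by edgeR and 0 by DESeq2, against 0.154% of all genes, and 7 had an unadjusted p under 0.05 (16.7%, against 9.77% of all genes). The smallest p was that of Kcnj8, with 15.9, 22.8 and 19.5 CPM in Alox5ko_TAC against 27.2, 21.9 and 23.9 CPM in WT_TAC. Without TAC it had 21.7, 22.9 and 20.91 CPM in Alox5ko_NS, against 31.4, 23.7 and 24.7 CPM in WT_NS. The mean log2 difference was -0.30 (SE 0.09, adjusted p = 0.238). Kcnj8 lies 26.1 Mb from Alox5 on chromosome 6, and the summed level of 7 smooth muscle and pericyte markers moved with it. That sum was 572 to 670 CPM in Alox5ko_TAC against 670 to 883 CPM in WT_TAC, and 504 to 655 CPM in Alox5ko_NS against 794 to 803 CPM in WT_NS. All 7 markers had a negative mean genotype difference, 6 at an unadjusted p under 0.05 and 0 past the adjusted threshold. Endothelial and fibroblast markers lay the same way, with negative differences for 5 of 6 and 6 of 6, of which 4 and 2 had an unadjusted p under 0.05 and 0 passed the adjusted threshold. The endothelial sum was 414 to 477 CPM in Alox5ko_TAC against 454 to 536 CPM in WT_TAC, and 306 to 422 CPM in Alox5ko_NS against 438 to 474 CPM in WT_NS. The part of these 3 marker lists in the result was not tested.

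The other genes named by rank in this average did not pass. Kcnh2 had -0.23 (SE 0.08, adjusted p = 0.291), Kcnj5 had -0.21 (SE 0.08), Kcnq1 and Kcnq1ot1 each had -0.18 (SE 0.08), and Kcnd2 had -0.23 (SE 0.11). Kcnc1 and Kcnj12 were on the other side with 0.64 (SE 0.26) and 0.18 (SE 0.10). Kcnk2, a mechanically gated two-pore channel, had -0.48 (SE 0.26), and Kcnip2 had -0.11 (SE 0.07). Of the 42 members, 32 had a negative and 10 a positive mean difference, and 48.8% of all genes tested had a positive one. The median was -0.10 over the members, against 0.00 over all genes. Members share the same libraries and are not independent, and the part of the marker lists in these directions was not tested.

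Among the 42 members, the widest contrast between the 2 TAC responses was that of Kcnd3os, a transcript antisense to Kcnd3. It lies at chr3:105441595-105452955 on the minus strand (GRCm38, ENSMUSG00000074346.6). Kcnd3os had 0.382, 0.274 and 0.478 CPM in Alox5ko_TAC, against 0.523, 0.970 and 0.845 CPM in Alox5ko_NS. In wild type Kcnd3os had 0.798, 0.900 and 0.658 CPM in WT_TAC, against 0.227, 0.346 and 0.359 CPM in WT_NS. All knockout TAC libraries lay below all knockout NS libraries, and all wild-type TAC libraries lay above all wild-type NS libraries. The log2 differences were -1.03 in the knockout (SE 0.38, adjusted p = 0.196) and 1.32 in wild type (SE 0.39, adjusted p = 0.136). Their difference of -2.36 (SE 0.54) had an unadjusted p of 0.00035 and did not pass the adjustment over all genes (adjusted p = 0.543). The counts were 5 to 26 per library, and 165 bases (12.2% of Kcnd3os) overlap with Kcnd3 on the other strand. Its counts were 9, 6 and 10 in Alox5ko_TAC, against 14, 26 and 19 in Alox5ko_NS. In wild type they were 17, 21 and 14 in WT_TAC, against 5, 8 and 8 in WT_NS. Kcnd3os thus met the rule for members mainly through Alox5ko_NS and WT_TAC, where it was high. The rule itself favoured the crossed order, which is given as a description. Kcnd3 itself had differences of -0.55 in the knockout and -0.19 in wild type.

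**Figure D4:**
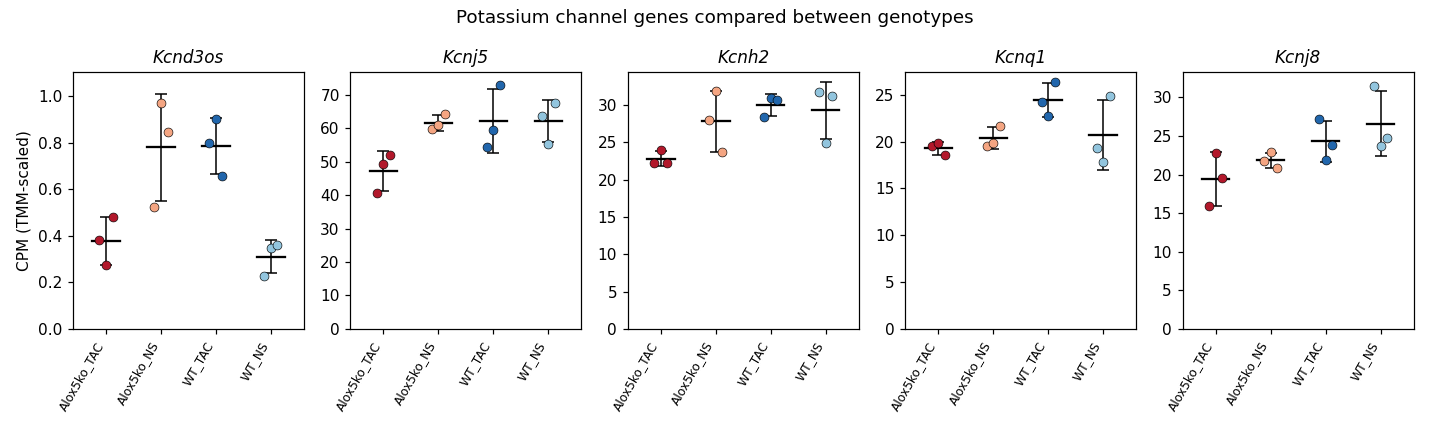
Level of 5 members with low p-values between genotypes, in CPM with TMM scaling on axes that start at 0. Points are libraries, horizontal bars group means and vertical bars 1 SD (n = 3). Kcnj5, Kcnh2 and Kcnq1 are lower in each Alox5ko_TAC library than in any WT_TAC library, and Kcnd3os has opposite orders in the 2 treatments.

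Genes that are no Kcn members were read from lists of 15 each, one of partners and regulators of potassium channels and one of sodium, calcium and pacemaker current genes. Of 13 tested partners and regulators, Klf15 alone was called for TAC over both genotypes, against 5.1% of all genes tested. Klf15, a transcription factor known in mouse to set the daily rhythm of Kcnip2, had 29.9, 24.96 and 26.1 CPM in Alox5ko_TAC, against 37.1, 28.8 and 40.3 CPM in Alox5ko_NS. In wild type Klf15 had 18.1, 15.01 and 19.5 CPM in WT_TAC, against 25.9, 24.9 and 25.3 CPM in WT_NS. It fell with TAC by 0.46 (log2, SE 0.08, adjusted p = 0.0034), and over both treatments it was higher in Alox5ko by 0.55 (SE 0.08, adjusted p = 0.0058). Abcc9, the sulfonylurea receptor that pairs with Kcnj11 and Kcnj8, had a TAC difference of -0.28 (SE 0.08, adjusted p = 0.0693). Of the 15 sodium, calcium and pacemaker current genes, 2 were called higher with TAC over both genotypes, against 2.9% of all genes tested. Of the 2, the pacemaker channel Hcn2 is reported here (0.39, SE 0.10, adjusted p = 0.0316). The sodium channel subunit Scn4b was higher in Alox5ko over both treatments by 0.54 (SE 0.10, adjusted p = 0.0365).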

How the data were processed

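Polyadenylated RNA of 12 left ventricle libraries, 3 in each of 4 groups, was made into directional libraries and sequenced, per the labels' protocols. The authors deposited raw counts per gene and RPKM, that is counts per gene length and sequencing depth. The RPKM follow from the counts and lengths, with 336792 of 336792 values recomputed to within 0.1%. Per the submitters' processing notes, HISAT2 and DESeq2 were used and the builds GRCh38 and mm10 are named. The role of GRCh38 in a mouse study, the counting program, its strand setting and the annotation release are not given in the sources used here. Gene coordinates are those of the deposited table, and 41 of 44 members have the same span in GENCODE release M21.

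Genes were tested in R 4.3.3 with edgeR 4.0.16 (limma 3.58.1) on the counts of all 12 libraries, with 1 coefficient per group, filterByExpr (minimum count 10, minimum total 15), TMM factors, the robust quasi-likelihood F test and Benjamini-Hochberg adjustment over 15542 genes, with a call under 0.05. DESeq2 1.42.0, relative log expression scaling, no filter, a replicate block, a fit on the compared libraries alone and the omission of each library in turn were the alternatives. The fitting code was tested on simulated data. CPM given for single libraries are scaled by TMM factors unless stated. Between libraries of a group the counts differed by more than sampling noise (chi-square per gene 5.24 to 30.9), so none was taken as a duplicate. With 20889431 to 27311196 counts per library, genes with a few counts, such as Kcnc1 and Kcna1, are the least precise. Same-numbered libraries did not deviate together, so the replicate numbers were not used as pairs.

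Named with values were the members called in any of 7 comparisons, the 10 with the smallest p in the mean TAC and mean genotype effects, the 10 with the highest mean RPKM, and the genes of lists by current; a few genes and 1 sequence are not reported here. Members and lists were chosen with earlier results of these data known. Kcnd3os and the libraries named for their position were singled out after their values were seen. The filter pattern was searched in frame on the coding strand of the longest coding transcript per gene.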

Additional observations from a re-analysis of the deposited data

Results flagged for a closer look

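The TAC responses of Kcnd3os ran in opposite directions in the 2 genotypes, with every Alox5ko_TAC library below every Alox5ko_NS library and every WT_TAC library above every WT_NS library. The knockout response minus the wild-type response was -2.36 on the log2 scale (SE 0.54). The test of this difference across all genes by edgeR gave an unadjusted p of 0.00035 and an adjusted p of 0.543, and over the 4 other settings that gave a value the difference was -2.38 to -2.35 with adjusted p of 0.0601 to 0.571. Without each library in turn it was -2.58 to -2.16 with adjusted p of 0.185 to 1. The counts of 5 to 26 per library and the strand overlap with Kcnd3 apply here, and their part in the result was not tested. Kcnd3os also met the rule for members mainly through Alox5ko_NS and WT_TAC, so that the rule itself favoured this order.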

How the results depend on the processing

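Without the filter on low counts, 6 members were called for TAC in the knockout (2 with it), 4 in wild type (1 with it), 8 over both genotypes (5 with it), 2 between genotypes under TAC (Kcnh2 and Kcnj5; 0 with it) and 1 between genotypes over both treatments (Kcnj8; 0 with it). Over all genes these counts were 756, 538, 1331, 252 and 348, against 209, 119, 792, 17 and 24 with the filter, while genotype without TAC and the test of the difference in response had 116 and 83 against 6 and 0. Kcnj4, not tested with the filter, was among the 4 members called in wild type and the 8 over both genotypes. DESeq2 called 407, 285, 59, 24, 99 and 1 genes for TAC in the knockout, TAC in wild type, genotype under TAC, genotype without TAC, mean genotype and the difference in response. For TAC in wild type, 2 members were called by DESeq2 (Kcnc1 and Kcnj3), in the fit on the compared libraries alone and with a replicate block (Kcnc1 and Kcne1 in both), and the block raised the members called for TAC over both genotypes to 7. Over all genes the block called 110 for TAC in wild type and 773 over both genotypes. Same-numbered libraries correlated at -0.121 to 0.0916 in their deviations (median 0.0248), so the block is not read as pairing. The fit on the compared libraries alone called 215 genes for TAC in wild type, 39 for genotype under TAC and 18 for genotype without TAC.

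Without each library in turn, the members called numbered 0 to 3 for TAC in the knockout, 1 to 2 in wild type and 2 to 9 over both genotypes (9 without Alox5ko_TAC 2, 3 without Alox5ko_NS 1, 2 without Alox5ko_TAC 1 or WT_NS 3), and 0 in the other 4 comparisons. Over all genes the calls for TAC numbered 60 to 379 in the knockout, 17 to 182 in wild type and 407 to 990 over both genotypes. They numbered 10 to 28 for genotype under TAC, 2 to 7 for genotype without TAC and 15 to 44 for mean genotype. For the difference in response they numbered 0 to 1. The 9 members called without Alox5ko_TAC 2 include Kcnj4, which the main fit did not test. The near-zero TAC difference of Kcnj2 turned to -0.00012 with relative log expression scaling, -0.00367 without the filter, -0.0056 with the replicate block and -0.00031 with DESeq2. Without each library in turn it ran over -0.107 to 0.0830, and values of both signs also occurred for Kcna2 (-0.338 to 0.0813), Kcnj11 (-0.0419 to 0.0845), Kcnj14 (-0.148 to 0.247), Kcnmb1 (-0.210 to 0.0223), Kcnn1 (-0.0233 to 0.111) and Kcnn3 (-0.128 to 0.04997). The cause was not tested. Of 948 single-gene values without 1 library, 889 kept direction and side of the threshold, 32 lost a call and 5 gained one. Most of the 948 were no call in the main fit and so could not lose one. The 32 losses fell on Kcnc1 and Kcnd2 in the knockout, with 5 each of 12 omissions. Over both genotypes they fell on Kcnj3 with 9, Kcna1 with 7 and Kcnj12 with 6. Of 344 under the other settings, 322 kept both and 18 gained a call. DESeq2 gave Kcnc1 no adjusted p for TAC in the knockout.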

Other observations

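Among the 55 Kcn rows under the count threshold were several genes of textbook currents. Kcne2, a partner of Kcnh2, had 1 count over the 12 libraries, and Kcnma1, the large-conductance calcium-activated pore, had 0 to 7 counts per library. No fold change is given for either, since these counts are too low for one at this depth.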
